A study of Mus musculus with 2 samples.

Results

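Neurexins and neuroligins are cell adhesion proteins of the synapse, and 5 of their genes were examined here: the neurexin genes Nrxn2 and Nrxn3 and the neuroligin genes Nlgn1, Nlgn2 and Nlgn3. The rule that names the members uses the gene family and no measured value, and they are 5 of the 21853 protein-coding genes of the GENCODE vM21 annotation. The data are maps of open chromatin made by DNase-seq, in which the enzyme DNase I cuts accessible DNA in nuclei and the cut ends are sequenced. The tissue was neural tube, from which brain and spinal cord form, of B6NCrl mouse embryos aged 11.5 days, with both sexes pooled and no treatment or allele named. There was 1 group with 2 libraries, replicate 1 and replicate 2, from separate tissue samples under the same donor label. No second group was defined, so no test between conditions could be made, and every value is given for each library.

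Neurexins sit mainly in the presynaptic membrane. Each neurexin gene makes a long alpha form from an upstream promoter and a short beta form from a promoter inside the gene, and both forms end in the same membrane anchor. Neuroligins are postsynaptic membrane proteins with an extracellular part that resembles acetylcholinesterase, and they bind neurexins across the synaptic cleft. Nlgn1 is best known from excitatory synapses, Nlgn2 from inhibitory synapses and Nlgn3 from both. Neural tube at this age holds dividing progenitors and the first neurons, before most synapses form.

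The authors called peaks, windows of 150 bp (but for 1 shorter window in each library) with a whole-number score, and hotspots, broader regions with a −log10 q-value, separately in each library. The scores are the authors' own, nothing used here states what they measure, and they were used only to rank peaks within a list, as the percentage of that library's peaks with a lower score (percentile). Replicate 1 held 199653 peaks with a median score of 45, and replicate 2 held 154324 with a median of 26, so equal scores in the libraries do not mean equal signal. Read counts are not among the deposited values, so the depth of sequencing is unknown, and the labels name 2 sequencer models for replicate 1 and 3 for replicate 2. Promoters of 7 of 7 neural progenitor markers and 6 of 6 early neuron markers held a peak in both libraries, where 68.5% of all protein-coding genes had one in replicate 1 and 67.7% in replicate 2. Of the defining markers of other cell types, those with a promoter peak were 2 of 4 for skeletal muscle, 2 of 4 for erythroid cells, 2 of 4 for endothelium and 1 of 4 for microglia in replicate 1, and 1, 2, 3 and 1 of 4 in replicate 2. These are values of a whole tissue, in which fewer cells with an open site and less opening per cell cannot be told apart, and the part of other cell types in the results below was not tested.

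The start sites of the 5 genes were the transcription start sites (TSSs) of all their transcripts, with TSSs no more than 500 bp apart taken as 1 site. A site was coding when a protein-coding transcript began there. It was called open when it had a peak within 500 bp of a TSS, in either direction. The sequences of the promoter peaks show what the open starts consist of, and 5 of them are printed here, in the mm10 build. Nrxn2 and Nlgn3 lie on the plus strand and Nlgn1 and Nlgn2 on the minus strand, and each sequence reads 5′ to 3′ in the direction of transcription. Stretches that are untranslated exon are left out. Capitals mark letters of a searched motif.
Nrxn2 alpha, chr19:6418636-6418730: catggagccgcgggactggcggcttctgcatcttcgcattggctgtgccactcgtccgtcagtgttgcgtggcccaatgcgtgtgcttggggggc
Nrxn2 beta, chr19:6497436-6497585: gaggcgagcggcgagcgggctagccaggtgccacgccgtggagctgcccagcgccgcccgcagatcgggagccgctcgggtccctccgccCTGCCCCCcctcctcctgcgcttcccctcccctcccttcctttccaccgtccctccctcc
Nlgn1 start 3, chr3:26153076-26153225: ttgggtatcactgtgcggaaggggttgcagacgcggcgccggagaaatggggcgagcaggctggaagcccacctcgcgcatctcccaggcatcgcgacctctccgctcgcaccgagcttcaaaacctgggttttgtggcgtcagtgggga
Nlgn2 first start, chr11:69838016-69838165: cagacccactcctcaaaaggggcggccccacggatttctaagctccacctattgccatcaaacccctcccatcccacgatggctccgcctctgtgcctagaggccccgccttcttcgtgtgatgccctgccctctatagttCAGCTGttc
Nlgn3 first start, chrX:101299116-101299167: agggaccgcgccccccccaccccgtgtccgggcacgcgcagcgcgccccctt
The peaks of the Nrxn2 starts were rich in G and C, with 66.7% in the alpha peak and 76% in the beta peak, and held 14 and 15 CG dinucleotides. The alpha values are for the full peak of 150 bp, of which 95 bp are printed. The Nlgn2 peak had 59.3% and 6 CG dinucleotides, fewer than the Nlgn1 peak with 64% and 14. In the printed stretches the Nlgn2 peak carried the E-box CAGCTG and the Nrxn2 beta peak carried GGNGGCAG, the core of the CTCF motif. No searched motif lay wholly in the printed stretches of the other 3. The full Nrxn2 alpha peak held a match to the letters of SP/KLF factors that crosses the end of its printed stretch.

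All 5 genes had a promoter peak at a coding start in both libraries, against the shares of 68.5% and 67.7% of all genes. The genes had 29 start sites, 15 coding and 14 non-coding. Of the coding sites, 11 of 15 were open, the same 11 in each library, against 53.2% of 34170 coding start sites of all genes in replicate 1 and 52.0% in replicate 2. Of the non-coding sites, 6 of 14 were open in replicate 1 and 5 of 14 in replicate 2, against 14.8% and 13.4% of 18282 such sites. The neurexin genes had 5 of 8 coding sites open and the neuroligin genes 6 of 7. Promoter peaks numbered 28 in replicate 1, of which 20 overlapped a peak of the other library, and 24 in replicate 2, of which 22 did. All lay in a hotspot of their own library.

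**Figure D1:**
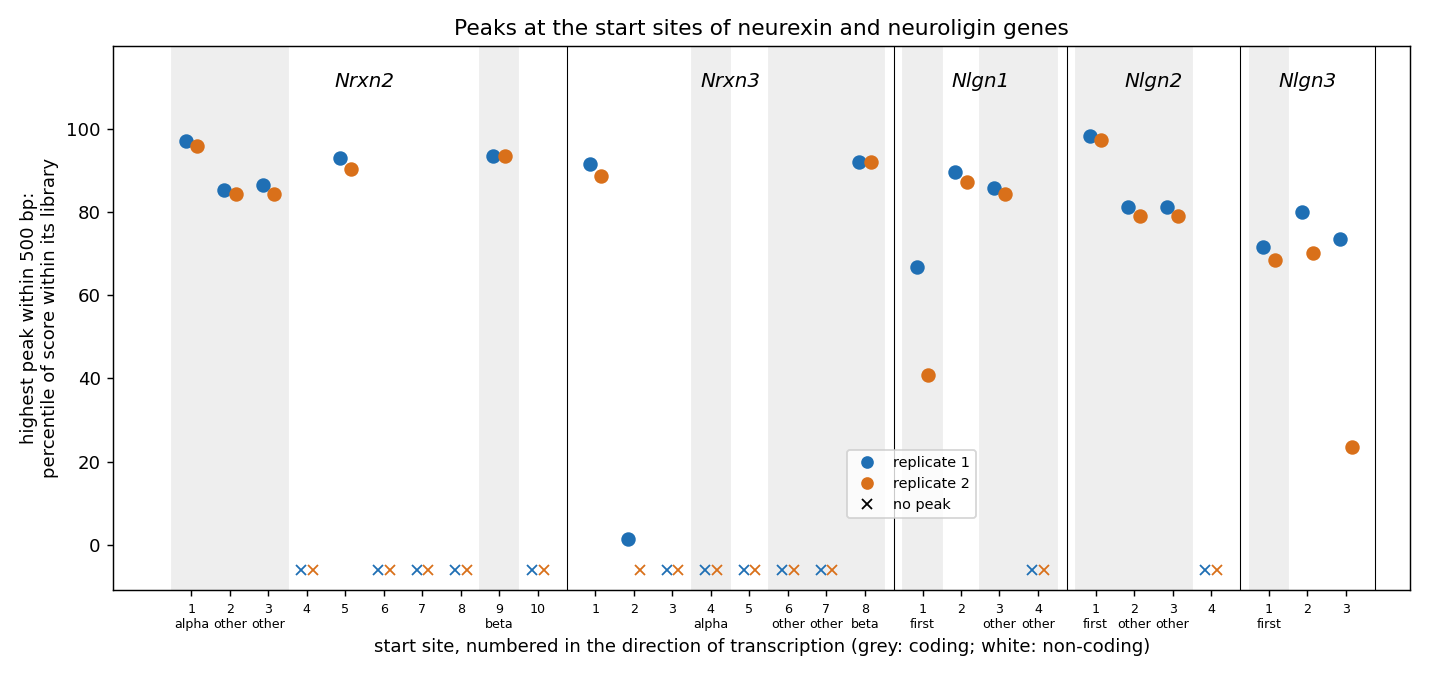
Each column is 1 of the 29 start sites, and the vertical axis is the percentile, within its library, of the score of the highest peak within 500 bp, with crosses for sites without a peak. The 4 coding sites (grey) without a peak in either library are Nrxn3 sites 4, 6 and 7 and Nlgn1 site 4.

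Nrxn2 (ENSMUSG00000033768.17, chr19:6418731-6544169, plus strand, 125 kb) had both of its classical promoters open. At the alpha start the highest peak scored 134 in replicate 1 and 114 in replicate 2, at percentiles 97.1 and 95.9, and was centred 20 and 40 bp before the first TSS. A second peak 320 and 340 bp before it scored 128 and 102. At the beta start, 78.9 kb downstream, the highest peak scored 119 and 101, at percentiles 93.5 and 93.4, and lay 160 bp before the TSS in both libraries. The alpha start thus ranked above the beta start in each library, and both stood in the top 10% of peaks.

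Another pair of coding starts of Nrxn2 lay 9.19 and 9.92 kb downstream of the alpha start. The first of them begins a transcript that codes for 1710 residues, the long form, and the other codes for 216. Peaks centred 268 bp after the first of them and 5 bp after the other scored 94 and 97 in replicate 1 and 66 and 57 in replicate 2. Both lay wholly inside a coding exon. The peak of 94 and 66 lies within 500 bp of both starts and so counts for each. A further open site, 27.6 kb downstream, begins a transcript with no coding sequence, and its peak scored 117 and 86. The other 5 non-coding sites of Nrxn2 had no peak in either library. The peak at the 216-residue start is printed because it is protein-coding sequence of the alpha form, as is the peak shared by the second and the third starts of Nlgn2.
Nrxn2 coding exon peak, chr19:6428576-6428725: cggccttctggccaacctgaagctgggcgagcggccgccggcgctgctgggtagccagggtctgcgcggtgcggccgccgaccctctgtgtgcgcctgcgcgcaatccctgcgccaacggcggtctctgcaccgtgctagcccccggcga
Nlgn2 coding exon peak, chr11:69834216-69834365: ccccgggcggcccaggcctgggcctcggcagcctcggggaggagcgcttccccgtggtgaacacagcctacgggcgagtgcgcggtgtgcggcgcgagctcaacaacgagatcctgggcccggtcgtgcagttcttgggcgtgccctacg
These peaks had 74.7% and 72.7% G and C and held 20 and 18 CG dinucleotides. No searched motif lay in either. Across Nrxn2, 28 coding exon intervals held 7 peaks in replicate 1 and 4 in replicate 2. The 26 intervals of Nrxn3 held 1 and 2, none shared between the libraries, and the 9 of Nlgn2 held 1 and 1. The 7 of Nlgn1 and the 9 of Nlgn3 held none. The share over all genes was not counted.

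Nrxn3 (ENSMUSG00000066392.11, chr12:88722876-90334935, plus strand, 1612 kb) differed between its annotated alpha and beta starts. The beta start, 1090 kb from the 5′ end of the gene, was open with peak scores of 113 and 94, at percentiles 92.1 and 92.1, and lay in hotspots of 1697 and 1595 bp. The annotated alpha start of GENCODE, 71.6 kb from the 5′ end, had neither a peak nor a hotspot in either library, and the nearest peak was 6207 bp away in replicate 1 and 6707 bp away in replicate 2. The coding starts at 231 and 470 kb, for forms of 1100 residues, had no peak or hotspot either. By contrast, the most upstream site of the gene was open, with scores of 111 and 79 at percentiles 91.6 and 88.8, centred 25 bp before its TSS. GENCODE places 4 transcripts there, classed as retained intron or nonsense-mediated decay, and none classed as protein-coding. The next site, 2.13 kb downstream, had 2 overlapping peaks with the score 17 in replicate 1 and none in replicate 2.

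The RefSeq annotation of the same assembly was read beside GENCODE, a choice made after these values were seen. RefSeq begins 27 predicted coding transcripts of Nrxn3 at a base 175 bp upstream of the first GENCODE TSS. They code for 1425 to 1696 residues, the length of an alpha form, where the known transcript at the closed start codes for 1571. The open peak at the 5′ end lies within 500 bp of that RefSeq start. The closed alpha start is also the first base of a later exon in 36 of the 36 RefSeq coding transcripts that begin further upstream. It is the same in 5 of the 6 GENCODE transcripts that do so, none of them classed as protein-coding. The 150 bases before it are printed because they end in AG, in capitals, the letters that stand before an exon at a splice acceptor.
Nrxn3 before the annotated alpha start, chr12:88794354-88794503: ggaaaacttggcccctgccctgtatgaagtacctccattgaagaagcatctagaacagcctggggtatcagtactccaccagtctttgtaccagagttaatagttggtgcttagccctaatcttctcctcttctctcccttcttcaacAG
This stretch is rich in T and C towards its end and holds 0 CG dinucleotides. In RefSeq the 5 genes had 21 coding start sites, of which 10 were open in both libraries. Of the 9 with a known transcript 7 were open, and of the 12 with predicted transcripts alone 3 were, including the 5′ start of Nrxn3.

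The position of the other coding starts within exons was compared in the same way. Of the 15 GENCODE coding sites, 6 lay inside a later exon of a transcript that starts further upstream, and 3 of those 6 were open. The 3 open ones are the second and the third sites of Nrxn2 and the third site of Nlgn2. The 3 closed ones are the alpha start of Nrxn3, its coding start at 470 kb and the fourth site of Nlgn1. Of the 9 coding sites outside such exons, 8 were open, and the exception was the Nrxn3 start at 231 kb. Over all genes, 13.9% of 5940 sites inside a later exon were open in replicate 1 and 13.0% in replicate 2, against 61.5% and 60.2% of the 28230 others. Among the members' coding sites the ratio of observed to expected CG dinucleotides in the 500 bp to either side ran from 0.110 to 0.264 at the 4 closed sites and from 0.287 to 0.947 at the 11 open ones. The median over all coding start sites was 0.370.

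Nlgn1 (ENSMUSG00000063887.13, chr3:25426215-26332460, minus strand, 906 kb) had, among its open GENCODE coding starts, the weakest peak at the first one. That peak scored 63 in replicate 1 and 22 in replicate 2, at percentiles 66.7 and 40.9, and lay 391 and 251 bp before the TSS. Only 0.59 kb downstream, a non-coding start had a peak of 105 and 74, at percentiles 89.7 and 87.3, 399 and 359 bp after its TSS. RefSeq places the start of a known coding transcript of 843 residues 551 bp downstream of the first GENCODE TSS, beside that site. The third site, 179 kb into the gene, codes for 814 residues and was open at 95 and 66, in hotspots of 1785 and 1737 bp. The fourth, at 199 kb, had no peak within 500 bp, and its nearest peak lay 1357 bp away in replicate 1 and 19017 bp away in replicate 2.

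Nlgn2 (ENSMUSG00000051790.15, chr11:69823122-69837784, minus strand, 14.7 kb) had the highest promoter peak of the 5 genes in each library. It scored 138 and 121, at percentiles 98.2 and 97.3, and was centred 307 bp before the first TSS. The neighbouring gene Tmem256 starts 730 bp from Nlgn2, and this peak was centred 423 bp from its TSS, so it cannot be assigned to one of the genes. It lay in a hotspot of 4225 bp in replicate 1 and 2465 bp in replicate 2, longer than 99.7% and 99.4% of the hotspots of those libraries. The second and the third coding starts, 2.94 and 3.53 kb downstream, shared the coding exon peak printed above, which scored 86 and 55. The non-coding site at 9.23 kb had no peak.

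Nlgn3 (ENSMUSG00000031302.16, chrX:101299168-101325963, plus strand, 26.8 kb) had all 3 of its start sites open in both libraries. The peak at the coding start scored 70 and 40, at percentiles 71.6 and 68.5, and was centred 23 bp after the first TSS. The non-coding start at 1.31 kb had a peak of 84 and 42, and the one at 15.2 kb a peak of 73 in replicate 1 and 16 in replicate 2, at percentiles 73.6 and 23.4. The first coding start of Nlgn3 thus ranked below that of Nlgn2 and below the open alpha and beta starts of the neurexin genes in each library.

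Distal peaks were those with no protein-coding TSS within 1 kb of the centre and nearest to a coding TSS of a member. The territory of a gene is the length of genome nearer to its coding TSSs than to those of other genes. The best distal peaks, those with the highest mean percentile among peaks found in both libraries, are printed for each gene on its own strand, with capitals for letters of a searched motif.
Nrxn2 best distal peak, chr19:6446136-6446285: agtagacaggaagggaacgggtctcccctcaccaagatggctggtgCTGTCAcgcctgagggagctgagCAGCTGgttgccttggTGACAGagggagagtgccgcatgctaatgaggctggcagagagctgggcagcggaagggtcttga
Nrxn3 best distal peak, chr12:89106496-89106645: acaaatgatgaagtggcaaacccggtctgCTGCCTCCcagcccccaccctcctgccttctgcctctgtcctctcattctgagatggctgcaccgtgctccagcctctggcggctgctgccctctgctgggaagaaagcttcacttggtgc
Nlgn1 best distal peak, chr3:25807676-25807825: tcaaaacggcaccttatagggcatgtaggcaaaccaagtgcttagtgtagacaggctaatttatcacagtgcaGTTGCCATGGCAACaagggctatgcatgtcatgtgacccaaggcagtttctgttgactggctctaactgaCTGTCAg
Nlgn2 best distal peak, chr11:69836076-69836225: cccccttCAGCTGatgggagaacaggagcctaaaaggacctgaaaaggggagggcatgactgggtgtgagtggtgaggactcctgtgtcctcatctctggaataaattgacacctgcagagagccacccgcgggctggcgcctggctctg
Nlgn3 best distal peak, chrX:101332636-101332785: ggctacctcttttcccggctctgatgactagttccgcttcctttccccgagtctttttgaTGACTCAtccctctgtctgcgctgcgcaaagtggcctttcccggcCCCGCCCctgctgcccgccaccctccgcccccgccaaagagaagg
The Nrxn2 peak is the one at the non-coding start at 27.6 kb, so it counts under both rules, and it carries the E-box CAGCTG and 2 matches to TGACAG, the letters bound by MEIS factors. The Nrxn3 peak lies in an intron 384 kb from the 5′ end and 86535 bp from the nearest coding TSS, and scored 109 and 84. The Nlgn1 peak lies in an intron 525 kb from the first start and scored 112 and 64. It holds 2 overlapping matches to GTTGCCAT, the letters of RFX factors, 1 on each strand, and a MEIS match. The Nlgn2 peak, the 1 found in both libraries, lies in an intron 1.63 kb from the start and scored 47 and 25. The Nlgn3 peak lies downstream of the gene, 33.5 kb from its start, and scored 122 and 107, at percentiles 94.3 and 94.6. It has a close neighbour that scored 115 and 94, which it overlaps in replicate 1 but not in replicate 2. It holds matches to the AP-1 letters TGANTCA and the SP/KLF letters GGGCGGG, and its nearest TSS of any other annotated gene is 36142 bp away.

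All 5 genes had at least 1 distal peak in both libraries, as did 73.7% of protein-coding genes in replicate 1 and 69.8% in replicate 2. The members together had 209 distal peaks in replicate 1 and 112 in replicate 2. Of these, 8 and 6 also lay at a non-coding start site of a member. Of the 209, 85 (40.7%, exact 95% binomial interval 33.9 to 47.7) overlapped a peak of replicate 2, against 48.1% of all distal peaks. Of the 112, 88 (78.6%, interval 69.8 to 85.8) overlapped a peak of replicate 1, against 66.4% of all. The intervals cover counting error only. Most distal peaks of the members lay in their own introns, 183 of 209 and 90 of 112.

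Nrxn2 had the most distal peaks per Mb of territory of the 5 genes in replicate 1. It had 29 distal peaks there and 24 in replicate 2 over a territory of 110 kb. That made 264 and 218 peaks per Mb, higher than in 95.9% and 94.5% of genes, while the median gene had 53.3 and 35.3. Of these peaks 20 in each library overlapped a peak of the other (69.0% and 83.3%). All peaks inside the gene of 125 kb were also counted, including promoter peaks and peaks nearest to a coding TSS of another gene. Their densest stretch of 50 kb, found from the same peaks that are counted in it, began 70.5 kb from the alpha start and contains the beta start. It held 25 of 44 such peaks in replicate 1 and 27 of 38 in replicate 2, not all of them distal peaks of Nrxn2. Counted in the same way, there were 409 and 430 peaks per Mb from the beta start to the end of the gene, against 290 and 217 in the 69.0 kb before it. These are not densities of Nrxn2 distal peaks and cannot be set against the 264 and 218 above. The next best distal peaks after the printed one were both in introns of the densest stretch, at 83.5 kb with scores of 115 and 88, and at 70.5 kb with 103 and 76. Hotspots covered 14.1% of the gene in replicate 1 and 10.7% in replicate 2, against 2.88% and 1.87% of the genome. The hotspot cover of Nlgn2, the shortest of the 5 genes, was higher, at 25.8% and 19.7%.

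Nrxn3 had the most distal peaks, 147 in replicate 1 and 64 in replicate 2, over a territory of 1698 kb. These counts exceed those of 99.96% and 99.5% of genes, but the territory is longer than that of 99.4%, and the density was 86.6 and 37.7 per Mb. The libraries differed for this gene: 48 of 147 peaks (32.7%, interval 25.2 to 40.9) overlapped a peak of replicate 2, and 49 of 64 (76.6%, interval 64.3 to 86.2) overlapped a peak of replicate 1. Up to the coding start at 470 kb, the last one before the beta start, there were 51 and 38 distal peaks. Beyond it there were 96 and 26, of which 21 in each library overlapped a peak of the other. In that stretch the peaks of replicate 1 without a partner had a median percentile of 14.5, and those with one 60.9. With lists of equal numbers of peaks, cut by score, the counts were 38 and 38 up to that start and 51 and 26 beyond it. The list of replicate 1 is longer, and the part of depth in this difference was not tested.

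**Figure D2:**
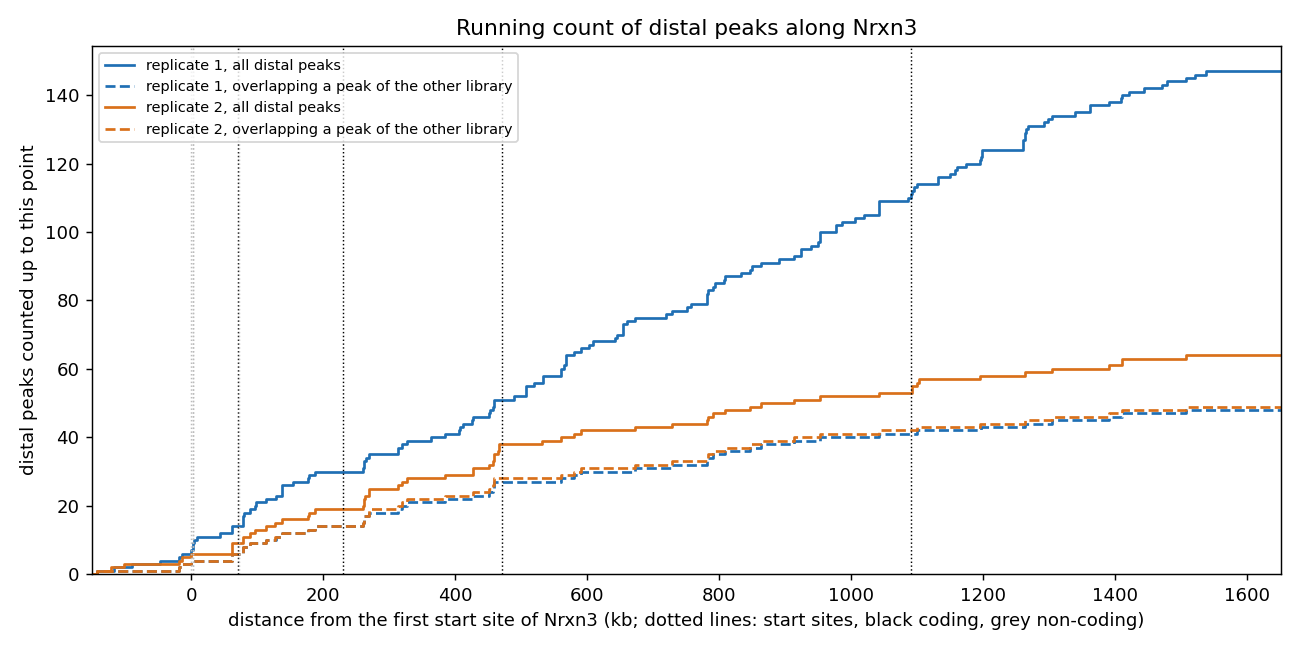
Running count of distal peaks along Nrxn3 from 5′ to 3′ in kb from its first start site, for each library (solid) and for peaks that overlap one of the other library (dashed), with start sites as dotted lines. The solid lines part beyond the start at 470 kb, ending at 147 and 64, while the dashed lines end at 48 and 49.

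The other leading shared peaks of Nrxn3 lay near its 5′ end. They are the peak at the open 5′ start and a peak 13.4 kb upstream of it, which scored 105 and 84, a mean percentile of 89.9. The annotated alpha start thus lay between open regions, with the best distal peak of the gene 384 kb from the 5′ end and none within 6 kb of that start.

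Nlgn1 had sparse distal peaks, 24 in replicate 1 and 13 in replicate 2 over a territory of 1026 kb. The density was 23.4 and 12.7 per Mb, higher than in 33.0% and 34.5% of genes. The 2186 genes with the longest territories, from 282 to 4426 kb, had a median of 25 and 15 distal peaks, close to its counts. The territory of Nlgn1 is longer than that of 98.5% of all genes, so most of those 2186 genes had shorter ones. Of its peaks 9 of 24 (37.5%, interval 18.8 to 59.4) and 10 of 13 (76.9%, interval 46.2 to 95.0) overlapped a peak of the other library. After the printed peak, the next lay 1.21 kb before the first start, with 76 and 47, and 1720 bp from the TSS of the antisense gene A830092H15Rik. The third, in an intron at 757 kb, scored 55 and 28. Long stretches held none: the longest gap inside the gene was 132 kb in replicate 1 and 183 kb in replicate 2.

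The compact neuroligin genes differed from Nlgn1. Nlgn3 had 8 distal peaks in each library over 51.1 kb, 157 per Mb, and 7 of 8 in each overlapped a peak of the other (87.5%, interval 47.3 to 99.7). Of the 8, 4 in replicate 1 and 5 in replicate 2 lay downstream of the gene, and none upstream. Their median percentile was 78.0 and 66.2, against 42.9 and 40.9 for all distal peaks. Nlgn2 had 1 distal peak in replicate 1 and 3 in replicate 2 over a territory of 9.93 kb, all in introns. With such counts its density was 101 and 302 per Mb, and the difference rests on 2 peaks.

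**Figure D3:**
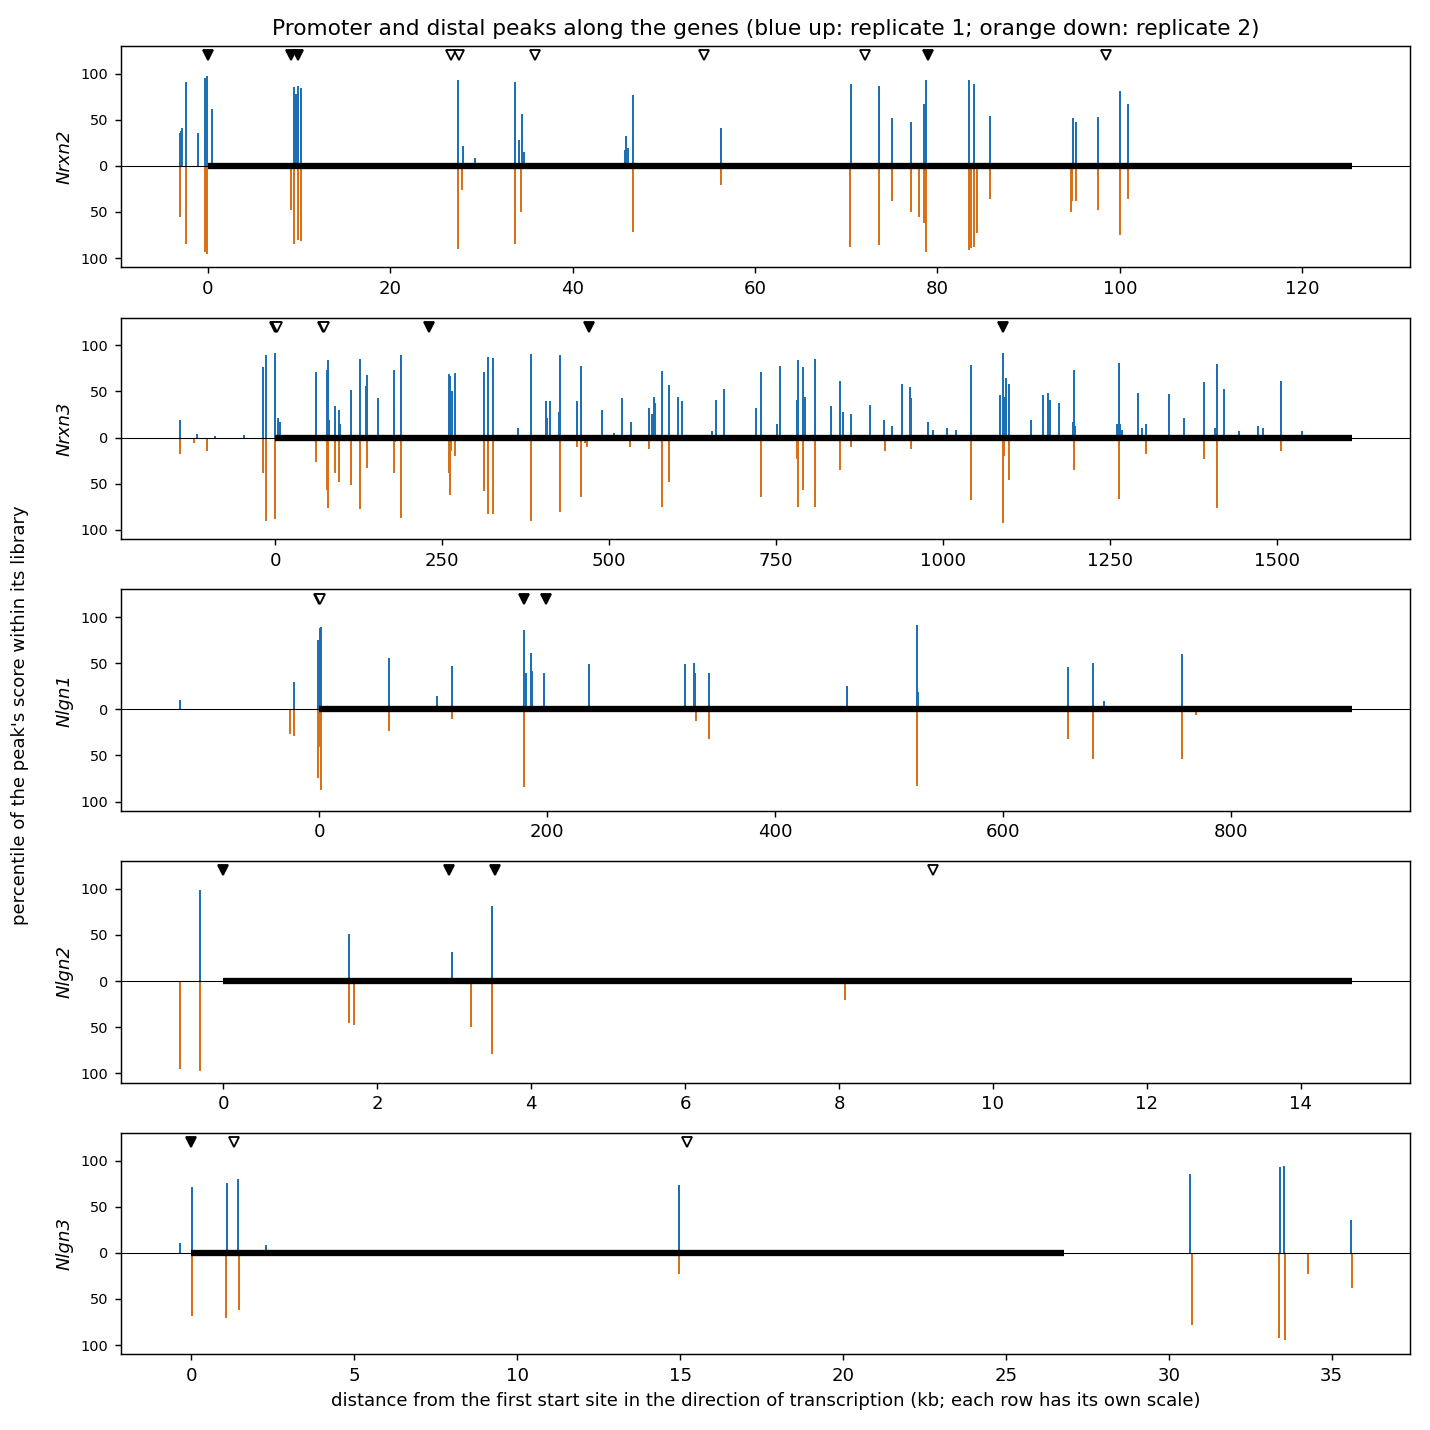
Promoter and distal peaks of each gene by distance in kb from its first start site, with bar height the percentile of the score (replicate 1 upward, replicate 2 downward), the gene body as a thick line, and start sites as triangles, filled for coding. The densest 50 kb of Nrxn2, counted from all peaks inside the gene, contains the beta start at 78.9 kb. Peaks nearest to another gene are in that count but are not drawn. The strongest Nlgn3 peaks lie past the end of the gene at 33.5 kb.

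**Figure D4:**
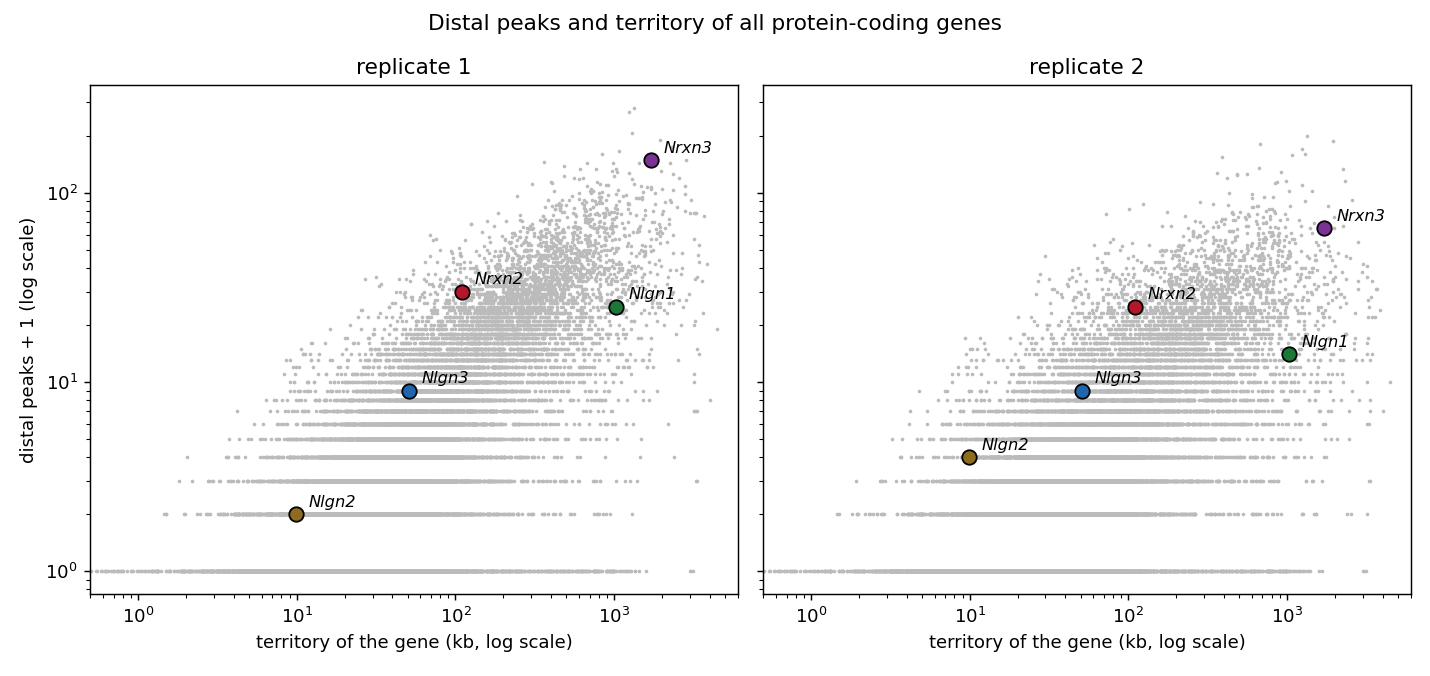
Distal peaks plus 1 against the length of the territory in kb, both on log scales, for all protein-coding genes (grey) with the 5 members marked, in each library. Nrxn2, with 29 and 24 distal peaks over 110 kb, lies above Nlgn1, with 24 and 13 over 1026 kb, in both libraries.

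The genes most alike in both distal counts, territory and promoter state were found by Euclidean distance over those 3 log2 values. For Nrxn2 they were Dbx1, with 30 and 23 distal peaks over 105 kb, and Calm2, with 28 and 23 over 104 kb. For Nrxn3 they were Robo1, an axon guidance receptor, with 130 and 73 over 1974 kb, and Ntm, with 107 and 68 over 1486 kb. The nearest to Nlgn1 were Mettl4 and Abca13, with 22 distal peaks each in replicate 1 and 13 and 12 in replicate 2. For Nlgn2 they were Vat1 and Nr1h3, with 1 and 3 each, and for Nlgn3 Rpp14 and Rftn2, with 8 and 8 each.

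Motif letters were counted on both strands in all peaks of each class. RFX factors are transcription factors known for genes of cilia and neurons. Their letters GTTGCCAT occurred in 6 of 209 distal peaks of the members in replicate 1 (2.87%, interval 1.06 to 6.14) and 6 of 112 in replicate 2 (5.36%, interval 1.99 to 11.3), against 1.41% and 1.19% of all distal peaks. In replicate 1 the interval includes the share of all distal peaks, and in replicate 2 it does not. The libraries share 5 of these sites, so the counts are not independent, and RFX was 1 of 25 motifs searched. The shared sites lie in introns of 4 of the 5 genes: Nrxn2 at 100 kb, Nrxn3 at 426 kb and 952 kb, Nlgn1 at 525 kb and Nlgn3 at 1.08 kb. Beside the Nlgn1 peak printed above, the other 4 are shown as their peaks in replicate 1, a set chosen after the matches were seen.
Nrxn2 peak with RFX letters, chr19:6518676-6518825: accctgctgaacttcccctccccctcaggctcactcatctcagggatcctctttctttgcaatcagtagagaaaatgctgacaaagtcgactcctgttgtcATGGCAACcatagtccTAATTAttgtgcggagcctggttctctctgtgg
Nrxn3 peak with RFX letters at 426 kb, chr12:89149176-89149325: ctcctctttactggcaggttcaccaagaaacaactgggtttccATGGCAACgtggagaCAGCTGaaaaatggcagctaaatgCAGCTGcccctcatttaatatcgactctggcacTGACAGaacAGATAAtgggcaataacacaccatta
Nrxn3 peak with RFX letters at 952 kb, chr12:89675096-89675245: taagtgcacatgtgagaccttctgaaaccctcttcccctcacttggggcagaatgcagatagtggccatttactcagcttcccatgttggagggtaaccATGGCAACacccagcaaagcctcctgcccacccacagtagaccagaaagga
Nlgn3 peak with RFX letters, chrX:101300176-101300325: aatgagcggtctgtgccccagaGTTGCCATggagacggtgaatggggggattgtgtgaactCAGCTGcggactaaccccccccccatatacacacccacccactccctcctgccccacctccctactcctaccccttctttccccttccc
The Nrxn2 peak scored 85 and 48 and also holds TAATTA, the core letters of homeodomain proteins. The Nrxn3 peak at 426 kb scored 103 and 59, and its replicate 1 window also holds 2 E-boxes CAGCTG, a MEIS match and AGATAA, the letters of GATA factors. The peak at 952 kb was weak, with 41 and 12, and the Nlgn3 peak scored 77 and 42 and carries an E-box. That Nlgn3 peak also counts as a promoter peak of its non-coding start at 1.31 kb.

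REST represses neuronal genes in other cells through a site made of a left and a right box. No peak of the members held both boxes. The right box GGACAGCGC lay in a shared intron peak of Nrxn2 84.0 kb from its start, 5.10 kb past the beta start, which scored 101 and 76. It is printed as the only member peak whose windows held a box in both libraries.
Nrxn2 peak with a REST box, chr19:6502696-6502845: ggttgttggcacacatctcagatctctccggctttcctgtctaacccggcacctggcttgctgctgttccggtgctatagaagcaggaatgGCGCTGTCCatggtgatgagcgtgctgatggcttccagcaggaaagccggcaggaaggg
The right box occurred in 0.150% and 0.189% of all distal peaks. The left box TTCAGCACC lay in an unshared Nrxn3 peak at 520 kb in replicate 1 and in the Nrxn3 peak 13.4 kb upstream in replicate 2, against 0.390% and 0.429% of all distal peaks.

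The E-box CAGCTG, the letters of proneural factors, occurred in 16.3% and 21.4% of the members' distal peaks, against 15.7% and 17.1% of all. The homeodomain letters TAATTA occurred in 14 of 209 (6.70%) and 5 of 112 (4.46%), against 3.84% and 2.53%, with both shares of all inside the intervals. AGATAA occurred in 22 of 209 (10.5%, interval 6.72 to 15.5) and 10 of 112 (8.93%, interval 4.36 to 15.8), against 6.09% and 4.74%. Here the interval of replicate 1 lies above the share of all distal peaks and that of replicate 2 includes it. The median GC content of these distal peaks was 47.3% and 51.7%, against 50% and 52.7% of all, and its part in the AT-rich matches was not tested. TGACAG occurred in 12.4% (interval 8.29 to 17.7) and 7.14% (interval 3.13 to 13.59), against 13.7% and 13.60%, so that the interval of replicate 2 ends just below the share of all. In promoter peaks the SP/KLF letters GGGCGGG occurred in 4 of 28 (14.3%, interval 4.03 to 32.7) and 5 of 24 (20.8%, interval 7.13 to 42.2). Both intervals include the shares of all promoter peaks, 27.6% and 29.8%. The letters of NRF1, CREB, YY1, ETS and NFY were in none of the members' promoter peaks. NFY's CCAATCA, the most frequent of these, was in 4.89% and 4.88% of all. The intervals, 0 to 12.3 and 0 to 14.2, include the share of all promoter peaks for each of these motifs.

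Genes whose proteins bind or build on neurexins and neuroligins were nearly all open at a promoter, where 68.5% and 67.7% of all protein-coding genes were. Of 21 ligands and receptors of neurexins, such as the LRRTM, cerebellin, neurexophilin and latrophilin families, 21 had a promoter peak in both libraries. So did 18 of 18 neuroligin-binding proteins and postsynaptic scaffolds, 19 of 19 presynaptic scaffolds and release genes, and 12 of 12 splicing factors known to act on neurexin exons or neuronal exons. Of 22 other synaptic organizers 20 did, and the exceptions were Lrrc4 and Flrt1, leucine-rich repeat adhesion proteins with a promoter peak in replicate 2 alone. Lrrc4 still had 39 and 28 distal peaks. The median number of distal peaks per gene was 22 and 14 for the ligands and receptors, 12.5 and 9 for the postsynaptic list, 8 and 9 for the presynaptic list, 26 and 16.5 for the other organizers and 53 and 25.5 for the splicing factors, against 3 and 2 for all genes. Per Mb of territory the medians of the 5 lists ran from 36.9 to 66.8 in replicate 1 and from 17.6 to 58.3 in replicate 2, against 53.3 and 35.3 for all genes.

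The partner genes with the most distal peaks were as follows. Among ligands they were the latrophilins Adgrl2, with 125 and 76 distal peaks, and Adgrl3, with 77 and 24. Among postsynaptic genes they were the scaffolds Dlg2, with 63 and 48, and Magi2, with 62 and 33. Among presynaptic genes they were Apba2, with 44 and 37, and Apba1, with 37 and 23, which code for adaptor proteins of the Mint family. Of the other organizers, the receptor phosphatase gene Ptprd had 91 and 41 and the neurotrophin receptor gene Ntrk3 had 81 and 48. Of the splicing factors, Rbfox1 had 174 and 114 and Celf4 had 118 and 90. In replicate 1 Nrxn3, with 147, stood between Adgrl2 and Rbfox1, whereas in replicate 2, with 64, it stood below Adgrl2, Celf4 and Rbfox1.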

How the data were processed

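DNase-seq was analysed from the files of 2 libraries of 1 group. Per the file headers and values, the authors deposited peaks of 150 bp (1 in each library is shorter) with a whole-number score of at most 150, and hotspots with a −log10 q-value from 1.30 to 6 and then 100, each called per library on mm10. The sources used here name no aligner, caller or threshold. Depth is unknown, and exact binomial 95% intervals cover counting error only. Repeated rows, 45 and 22, were removed from the peak lists.

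TSSs came from GENCODE vM21 and, as an added reading, RefSeq, both on GRCm38.p6, the assembly of mm10, and sequences from its RefSeq FASTA. A TSS no more than 500 bp from the next was merged with it. Overlap required 1 bp. The functions were tested on simulated regions (Python 3.11.15, numpy 2.4.6, scipy 1.17.1, samtools 1.23.1). No test was run, since the design has 1 group.

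The members and lists were chosen with earlier results of these data known. Named were all 5 members, the 3 best shared distal peaks of each, 2 genes most alike each member (pseudocount 1), and of each partner list the 2 genes with the most distal peaks and those not open in both libraries. The 25 motifs searched on both strands were the E-boxes CAGCTG and also CAGATG of proneural factors, ATTGTT (SOX), ATGCAAAT (POU), TAATTA (homeodomain), TGACAG (MEIS), GTTGCCAT (RFX), GCGCATGCG (NRF1), GGGCGGG (SP/KLF), TGACGTCA (CREB), CCAATCA (NFY), AAGATGGCG (YY1), CCGGAAGT (ETS), TATAAA of promoters, TGANTCA (AP-1), ACATTCC (TEAD), ATCAAAG (TCF/LEF), AGATAA of GATA factors, TGTTTAC (FOX), AGGTCA (nuclear receptors), GGNGGCAG (CTCF core), TTCAGCACC and GGACAGCGC (REST boxes), and the NFI dimer and EBF motifs. Alternatives changed the window, the distal distance, the peaks used, the annotation and the libraries.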

Additional observations from a re-analysis of the deposited data

How the results depend on the processing

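Of 93 alternative values of 13 results, 77 stayed within 1.5 times the reported value, or for a share within 1 SD of both directions. That SD is taken from the 2 library shares, 40.7% and 78.6%, so leaving out a library could not move the share, by construction. The counts of open partner genes were at or near the full length of each list, so only a fall could take them past 1.5 times. The count of open coding start sites ran from 8 to 11 of 15 over the alternatives tried on the GENCODE starts, the lowest with a window of 200 bp, and the closed sites of Nrxn3 had no peak or hotspot under any of them. RefSeq starts, an alternative chosen after seeing the data, gave 10 of 21. It is among the 77 only because the bare counts, 10 and 11, were compared. The number of sites differs, 21 against 15, so the share of open sites was lower with RefSeq. All 16 values that moved by more were among the 54 alternative values of distal counts, given here as means of both libraries. With the higher-scoring 50% of each list, the members together had 62 distal peaks in place of 160.5, Nrxn2 15.5 in place of 26.5, Nrxn3 35 in place of 105.5, Nlgn1 5.5 in place of 18.5 and Nlgn2 0.5 in place of 2; this alternative uses fewer peaks by construction. With the nearest TSS of any gene, the members together had 95, Nrxn3 54.5 and Nlgn1 10. Peaks inside the gene body numbered 41 for Nrxn2, 6.5 for Nlgn2 and 4.5 for Nlgn3, where the reported distal mean was 8. Hotspots in place of peaks gave 5 for Nlgn3. Distances over 2 kb and over 5 kb left Nlgn2 with 0.5 and 0. Leaving out a library gave 64 to 147 for Nrxn3 and 1 to 3 for Nlgn2, so the Nrxn3 mean rests on replicate 1; without it the count is 64. The cause of these changes was otherwise not tested. No paired analysis was possible because there is 1 group and the result comes from no test. With 2 libraries and unknown depth, a site without a peak is one not called here, and shares of few peaks, as at Nlgn2 and Nlgn3, have wide intervals.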
